A study of Mus musculus with 4 samples.

Results

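The cGAS-STING pathway and the nucleases that clear self nucleic acids from the cytosol were followed here through 10 genes in mouse mammary tumours. The genes were picked by symbol and not by their values: Mb21d1 (cGAS), Tmem173 (STING), Tbk1, Ikbke, Irf3, Trex1, Samhd1, Rnaseh2a, Rnaseh2b and Rnaseh2c. They are 10 of the 23238 gene symbols that were counted, and all 10 had enough counts to be tested. Bulk RNA sequencing measured mammary gland tumours of female FVB mice aged 14 weeks, with 2 libraries labelled Nr1d1+/+ and 2 labelled Nr1d1-/-. Both genotypes carried PyMT, the polyoma virus middle T oncogene. The Nr1d1 product, REV-ERBα, is a transcriptional repressor and part of the circadian clock. The labels name no further treatment. They do not give the promoter of PyMT, what the Nr1d1-/- allele lacks, or whether the 2 libraries of a genotype came from separate mice. P-values therefore measure the spread between these libraries, which may be in part technical.

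In this pathway cGAS binds double-stranded DNA in the cytosol and makes the cyclic dinucleotide cGAMP, which binds STING on the endoplasmic reticulum. STING then recruits the kinase TBK1, which phosphorylates the transcription factor IRF3, and IRF3 switches on type I interferon and related genes. TREX1, SAMHD1 and the 3 subunits of ribonuclease H2 act on the other side, by degrading or limiting the self nucleic acids that would set off such sensing. In people, inherited loss of any of these enzymes causes Aicardi-Goutières syndrome, an interferon-driven inflammatory disease. In tumours the pathway is known for linking misplaced DNA to immune cells.

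Among the 10 genes, Irf3, Trex1 and all 3 ribonuclease H2 subunits were higher in the libraries labelled Nr1d1-/-, by 1.65-fold to 2.53-fold. Tbk1 was lower, at 0.578 of its Nr1d1+/+ level. Mb21d1, Tmem173, Ikbke and Samhd1 did not pass the test. These calls came from edgeR's quasi-likelihood test at an adjusted p under 0.05, which called 16.5% of all 14801 tested genes higher and 17.3% lower. Their median log2 fold was 0.84, against -0.01 over all tested genes. In 6 of the 10 genes both Nr1d1-/- libraries lay above both Nr1d1+/+ libraries, and in 2 they lay below, whereas 34.4% and 36.2% of all tested genes were separated in these directions. Leaving out 1 library changed the count. Without Nr1d1+/+ replicate 2, Irf3 and Rnaseh2a were the 2 genes still called higher and Tbk1 was not called, beside 6.75% of all genes higher and 7.62% lower. Without Nr1d1+/+ replicate 1 (9.57% and 11.8% of all genes) and without Nr1d1-/- replicate 1 (12% and 13.2%), Irf3, Rnaseh2a and Rnaseh2c were called higher and Tbk1 lower. Without Nr1d1-/- replicate 2 (15.3% and 15.6%) the 5 higher calls held and that of Tbk1 did not. Levels are normalised read counts (CPM, relative to the library's total) scaled with TMM factors, folds are Nr1d1-/- over Nr1d1+/+, and ± is the SD over 2 libraries.

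**Figure D1:**
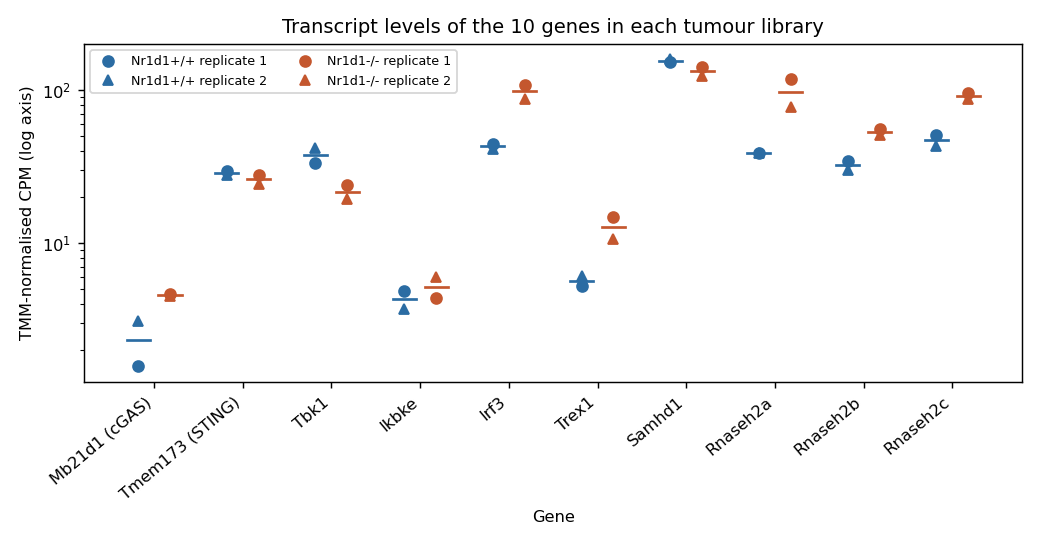
TMM-normalised CPM of the 10 genes (log axis) in each of the 4 tumour libraries, with 1 point per library and a bar at the mean of each genotype. The Nr1d1-/- points lie above the Nr1d1+/+ points for Mb21d1, Irf3, Trex1 and the 3 ribonuclease H2 genes, below them for Tbk1 and Samhd1, and among them for Tmem173 and Ikbke.

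The targeted gene itself did not separate the genotypes. Nr1d1 was at 20.1 and 10.3 CPM in Nr1d1+/+ replicates 1 and 2 and at 10.6 and 12.8 CPM in Nr1d1-/- replicates 1 and 2. Nr1d1+/+ replicate 2 lay below both Nr1d1-/- libraries, and the log2 fold was -0.37 (SE 0.35, adjusted p = 0.436). Leaving out Nr1d1+/+ replicate 1 turned its sign, to 0.14. Counts per gene do not show which exons the reads covered, and Thra on the opposite strand shares 263 exonic bases with Nr1d1, so the labels could not be checked by this gene. Every direction below is therefore that of the libraries as labelled.

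The libraries held 15905404 to 19116279 counts. Their luminal epithelial markers summed to 6671 and 5726 CPM in Nr1d1+/+ and to 10465 and 9619 CPM in Nr1d1-/-. The epithelium of a mammary tumour was thus present in both groups. Of these 8 markers, 3 were higher (Krt8, Krt18 and Krt19) and 1 was lower (Cdh1). With the GC content and transcript length trends removed, 1 was higher and 0 were lower. Summed levels of markers of most other cell types also differed between genotypes, and their part in the results was not tested. Sums of the 6 fibroblast markers overlapped, at 573 and 1037 CPM in Nr1d1+/+ and 1011.5 and 1063 CPM in Nr1d1-/-, with 1 higher. The 6 endothelial markers summed to 42.0 and 52.4 CPM against 61.6 and 80.0 CPM, with 2 higher. The 3 neutrophil markers summed to 20.2 and 25.4 CPM against 47.1 and 27.5 CPM, with 1 higher. Counts of called markers stand beside 16.5% of all genes higher and 17.3% lower. The 10 macrophage markers summed to 340 and 425 CPM in Nr1d1+/+ and to 476 and 622 CPM in Nr1d1-/-, with 3 higher and 1 lower. The 3 higher were C1qa, C1qb and C1qc, and the 1 lower was Cd14. The 6 dendritic cell markers summed to 15.5 and 11.5 CPM against 92.6 and 42.7 CPM, with 2 of 4 tested higher and Flt3 at 0 in replicate 1 of both genotypes. The 10 T and NK cell markers summed to 15.2 and 19.2 CPM against 24.2 and 23.0 CPM, with 2 higher and 1 lower of 8 tested and Cd8a, Nkg7 and Ncr1 at 0 in Nr1d1-/- replicate 1. The 4 B cell markers stayed between 0.144 and 1.25 CPM in sum. The 5 red blood cell markers summed to 452 and 580 CPM against 2015 and 2192 CPM, and all 5 were higher. The 4 adipocyte markers summed to 24.6 and 44.8 CPM against 118 and 88.2 CPM, with 2 higher. Skeletal muscle markers summed to 514 CPM in Nr1d1-/- replicate 1 and to between 1.29 and 2.91 CPM elsewhere. In bulk tumour RNA, fewer cells of a type and less RNA per cell cannot be told apart.

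Promoter sequences are shown first for the 2 genes whose rise was called under every setting tried, Irf3 and Rnaseh2a, and for Tbk1, the gene that fell. Each runs 5′ to 3′ along the gene's own strand, from 250 bases before to 50 bases after the start site in RefSeq (GRCm38.p6). Irf3 is read from chr7:44997398-44997697 (plus strand), Rnaseh2a from chr8:84966027-84966326 (minus strand) and Tbk1 from chr10:121586745-121587044 (minus strand). Capitals mark CACGTG, an E-box core bound by clock factors, and CGGAAGT, an ETS factor core.
Irf3: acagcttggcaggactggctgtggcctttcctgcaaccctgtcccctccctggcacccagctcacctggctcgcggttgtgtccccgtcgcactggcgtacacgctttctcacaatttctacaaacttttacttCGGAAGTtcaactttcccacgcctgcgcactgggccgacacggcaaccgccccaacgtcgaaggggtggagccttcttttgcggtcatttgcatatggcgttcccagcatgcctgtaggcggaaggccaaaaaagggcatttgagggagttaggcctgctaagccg
Rnaseh2a: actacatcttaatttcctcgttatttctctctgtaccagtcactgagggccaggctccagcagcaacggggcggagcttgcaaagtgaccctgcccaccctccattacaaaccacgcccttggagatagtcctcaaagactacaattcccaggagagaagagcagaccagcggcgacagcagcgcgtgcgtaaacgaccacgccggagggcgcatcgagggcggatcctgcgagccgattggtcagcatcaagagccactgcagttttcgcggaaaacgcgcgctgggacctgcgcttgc
Tbk1: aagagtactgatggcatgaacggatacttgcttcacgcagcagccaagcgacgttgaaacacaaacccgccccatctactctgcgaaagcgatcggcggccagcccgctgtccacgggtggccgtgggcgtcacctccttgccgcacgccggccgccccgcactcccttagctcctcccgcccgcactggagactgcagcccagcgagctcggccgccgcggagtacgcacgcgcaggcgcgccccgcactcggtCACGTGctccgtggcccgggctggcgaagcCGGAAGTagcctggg
Searched on both strands were 9 such windows for 8 of the 10 genes, 2 of them for Trex1. Tmem173 and Rnaseh2b were not searched. AGGTCA, the core site of REV-ERB and related nuclear receptors, was found in 1 window of Trex1 and in no other, whereas 16.3% of all 32851 windows hold it. The longer REV-ERB and ROR element, which ends in a form of that core and is present in 0.384% of all windows, and the IRF element (GAAA, any 2 bases, GAAA), present in 3.44%, were found in none. CGGAAGT stood at base 135 of the Irf3 window and base 286 of the Tbk1 window, and CACGTG at base 256 of the Tbk1 window. These last 2 motifs were chosen after the sequences were seen, and 6.42% and 7.15% of all windows hold them. A match here is a string of letters and not a binding site.

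The sensor had the lowest mean level of the 10 genes in both genotypes. Mb21d1, which encodes cGAS (chromosome 9, 78430526 to 78443237), had 33 and 65 counts in Nr1d1+/+ and 63 and 73 counts in Nr1d1-/-, or 1.56 and 3.11 CPM against 4.62 and 4.53 CPM. Both Nr1d1-/- libraries were higher than both Nr1d1+/+ libraries, but the Nr1d1+/+ libraries differed from each other by more than the gap between the genotypes' nearest libraries. Exact Poisson intervals (95%, counting error only) ran from 1.07 to 2.19 CPM in Nr1d1+/+ replicate 1 and from 2.40 to 3.96 CPM in replicate 2. The log2 fold was 0.97 (SE 0.46, adjusted p = 0.134), and its 95% interval ran from -0.07 to 2.01. Without Nr1d1+/+ replicate 1 the log2 fold was 0.51, and without replicate 2 it was 1.52. An opposite-strand pseudogene, Gm8093, shares 201 of its exonic bases.

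The adaptor did not separate the genotypes. Tmem173, which encodes STING (chromosome 18, 35733679 to 35740554), measured 29.5 and 27.7 CPM in Nr1d1+/+ and 28.0 and 24.1 CPM in Nr1d1-/-. The genotypes overlapped, with a log2 fold of -0.14 (SE 0.21, adjusted p = 0.648) and a 95% interval from -0.62 to 0.35. An interval of that width does not show that the levels were equal. The Tmem173 to Mb21d1 ratio per kb was 33.4 and 15.7 in Nr1d1+/+ and 10.7 and 9.39 in Nr1d1-/-.

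Of the pair of kinases that phosphorylate IRF3, only Tbk1 passed the test. Tbk1 (chromosome 10, 121546455 to 121586787) measured 33.1 and 41.8 CPM in Nr1d1+/+ and 24.0 and 19.3 CPM in Nr1d1-/-. Both Nr1d1-/- libraries lay below both Nr1d1+/+ libraries. The log2 fold was -0.79 (SE 0.23, adjusted p = 0.0301). The call did not hold without Nr1d1+/+ replicate 2 (-0.64, adjusted p = 0.187) or without Nr1d1-/- replicate 2 (-0.66, adjusted p = 0.0915). Ikbke (chromosome 1, 131254343 to 131279606), the inducible kinase related to Tbk1, measured 4.87 and 3.68 CPM against 4.40 and 5.95 CPM. Its libraries overlapped, with a log2 fold of 0.28 (SE 0.38, adjusted p = 0.598, 95% interval -0.59 to 1.15), and its sign turned with scaling by library size alone (-0.091). Per kb of transcript, Tbk1 stood 7.31 and 12.2 times above Ikbke in Nr1d1+/+ and 5.86 and 3.49 times above it in Nr1d1-/-.

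Irf3, the transcription factor at the end of the cascade, rose. Irf3 (chromosome 7, 44997648 to 45002848) measured 44.4 and 41.3 CPM in Nr1d1+/+ and 108 and 87.3 CPM in Nr1d1-/-. The lowest Nr1d1-/- library stood well above the highest Nr1d1+/+ library. Its mean went from 42.9 ± 2.16 to 97.7 ± 14.8 CPM, a log2 fold of 1.19 (SE 0.19, adjusted p = 0.00363). Bcl2l12, whose span overlaps that of Irf3 on the opposite strand without a shared exonic base, measured 6.06 ± 0.453 and 5.22 ± 1.38 CPM. With TMM scaling, substrate and kinase thus moved in opposite directions. The Irf3 to Tbk1 ratio per kb was 2.0 and 1.47 in Nr1d1+/+ and 6.73 and 6.72 in Nr1d1-/-. With the GC content and transcript length trends removed, Irf3 was still called (log2 fold 0.83) and Tbk1 was not (-0.48). These are transcript levels, and IRF3 is switched on by phosphorylation, which was not measured.

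**Figure D2:**
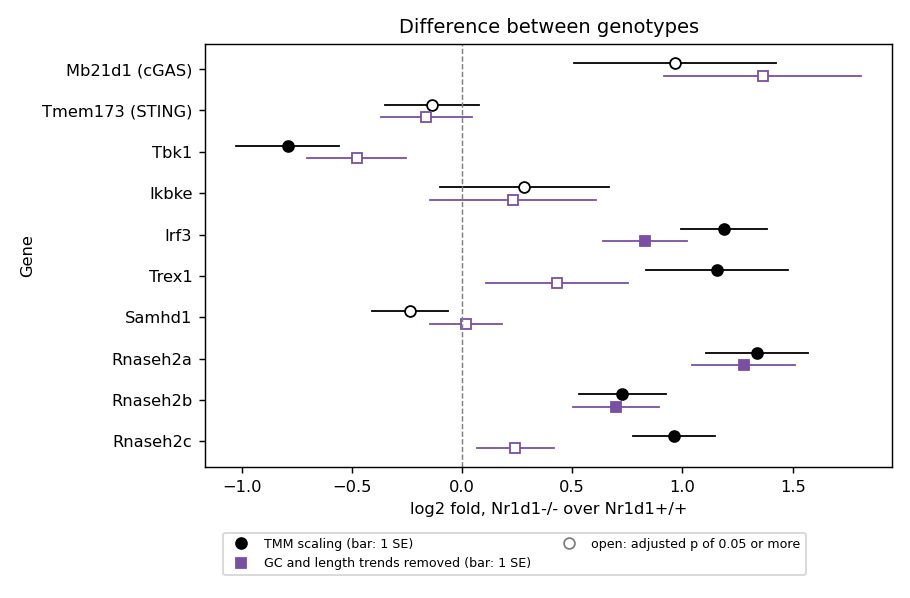
Log2 fold of each of the 10 genes, Nr1d1-/- over Nr1d1+/+, with TMM scaling (circles) and with the GC content and transcript length trends removed (squares); bars are 1 SE and open symbols did not pass an adjusted p of 0.05. Irf3, Rnaseh2a and Rnaseh2b are filled in both fits, while Tbk1, Trex1 and Rnaseh2c are filled only with TMM scaling.

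The nucleases that act on DNA and on its building blocks did not move alike. Trex1 encodes the main exonuclease of cytosolic DNA (chromosome 9, 109057933 to 109059734). It measured 5.25 and 6.08 CPM in Nr1d1+/+ and 14.8 and 10.5 CPM in Nr1d1-/-, from 111, 127, 202 and 170 counts in that order. Both Nr1d1-/- libraries were higher, and they differed from each other more than the Nr1d1+/+ pair did. The log2 fold was 1.16 (SE 0.32, adjusted p = 0.0244). The call was lost when any 1 of 3 libraries was left out: Nr1d1+/+ replicate 1 (1.01, adjusted p = 0.136), Nr1d1+/+ replicate 2 (1.24, adjusted p = 0.0915) or Nr1d1-/- replicate 1 (0.89, adjusted p = 0.0999). Atrip lies on the same strand and its annotated span covers Trex1. It measured 12.3 ± 2.69 and 17.0 ± 1.99 CPM, with a log2 fold of 0.47 (adjusted p = 0.219).

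Samhd1 encodes the phosphohydrolase that breaks down deoxynucleotides (chromosome 2, 157097533 to 157135265). It had the highest CPM of the 10 genes, at 153 and 158 CPM in Nr1d1+/+ and 141 and 123 CPM in Nr1d1-/-. Both Nr1d1-/- libraries lay below both Nr1d1+/+ libraries by a small margin, with a log2 fold of -0.24 (SE 0.17, adjusted p = 0.312, 95% interval -0.62 to 0.15). The Samhd1 to Trex1 ratio per kb was 8.03 and 7.19 in Nr1d1+/+ and 2.63 and 3.23 in Nr1d1-/-. With the GC content and transcript length trends removed, the log2 folds were 0.018 for Samhd1 and 0.43 for Trex1, and neither was called.

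Ribonuclease H2, which removes ribonucleotides from DNA and RNA from RNA-DNA hybrids, is built from a catalytic subunit and a pair of accessory subunits, and the transcripts of all 3 rose. Rnaseh2a, the catalytic subunit (chromosome 8, 84956610 to 84969767), measured 38.4 and 38.5 CPM in Nr1d1+/+ and 117 and 77.1 CPM in Nr1d1-/-. The Nr1d1+/+ libraries were nearly identical and the Nr1d1-/- libraries were both higher but far apart. Its log2 fold was 1.34 (SE 0.23, adjusted p = 0.00435). Its annotated exons share 154 bases with Prdx2 on the opposite strand, which rose too (279.9 ± 29.8 to 433 ± 1.003 CPM, log2 fold 0.63, adjusted p = 0.0237), and 339 bases with Gm49661 on the same strand. Prdx2 (from 84969587) and Gm49661 (from 84967678) lie upstream of the RefSeq window shown above, which ends at 84966326. These overlaps therefore hold only for annotated transcripts with a start further upstream. Which start the tumours used was not tested.

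The accessory subunits differed less than Rnaseh2a between the Nr1d1-/- libraries. Rnaseh2b (chromosome 14, 62292589 to 62372992) measured 34.3 and 29.8 CPM in Nr1d1+/+ and 55.7 and 50.5 CPM in Nr1d1-/-, with a log2 fold of 0.73 (SE 0.20, adjusted p = 0.0228). Both Nr1d1-/- libraries were higher, but leaving out Nr1d1+/+ replicate 1, Nr1d1+/+ replicate 2 or Nr1d1-/- replicate 1 gave adjusted p-values of 0.0702, 0.168 and 0.0704. Rnaseh2c (chromosome 19, 5601873 to 5607019) measured 50.5 and 43.2 CPM against 95.3 and 87.0 CPM, with a log2 fold of 0.96 (SE 0.19, adjusted p = 0.00655). It too was higher in both Nr1d1-/- libraries, and without Nr1d1+/+ replicate 2 the log2 fold was 0.83 (adjusted p = 0.0545). Kat5 shares 426 exonic bases with it on the opposite strand and was at 47.7 ± 2.99 and 46.1 ± 0.536 CPM (adjusted p = 0.863).

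Levels per kb, with the length of 1 principal transcript a gene, set the subunits against each other. Another length for a gene would rescale its ratios alike in every library. The choice mattered for Rnaseh2a. With the GC and length trends removed, its log2 fold was 1.28 with this transcript and 0.93 with the median transcript. The ratio of Rnaseh2c to Rnaseh2b was 1.95 and 1.92 in Nr1d1+/+ and 2.27 and 2.29 in Nr1d1-/-. Rnaseh2a over Rnaseh2b was 0.819 and 0.943 in Nr1d1+/+ and 1.54 and 1.12 in Nr1d1-/-. Both ratios were higher in both Nr1d1-/- libraries, whereas the ratio of Rnaseh2a to Rnaseh2c overlapped, at 0.419 and 0.491 against 0.679 and 0.488. With TMM scaling Rnaseh2b had the smallest fold of the 3 subunits, whereas with the GC and length trends removed Rnaseh2c did (0.24, against 0.70 for Rnaseh2b).

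**Figure D3:**
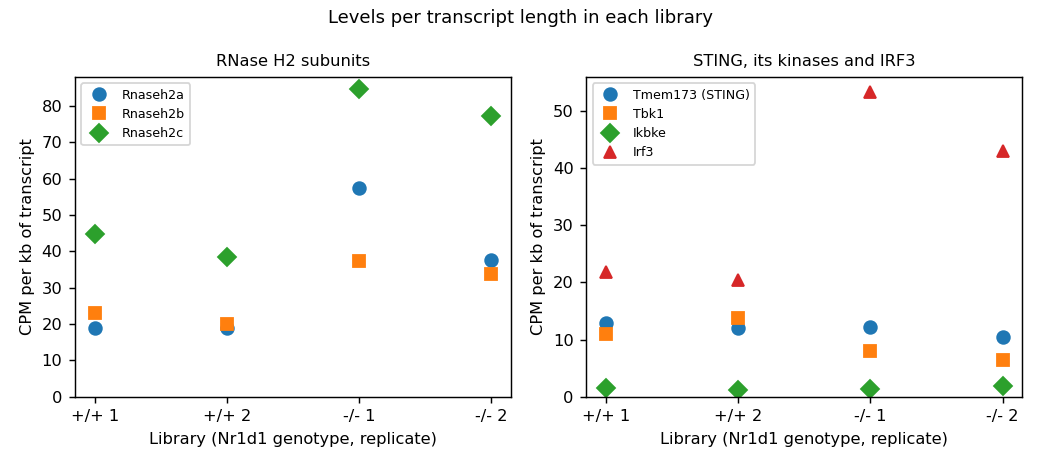
CPM per kb of transcript in each of the 4 libraries (genotype and replicate on the x axis), for the 3 ribonuclease H2 subunits (left) and for Tmem173, Tbk1, Ikbke and Irf3 (right), with 1 point per gene and library. In Nr1d1-/- Irf3 stands at 53.3 and 43.0 CPM per kb while Tbk1 stands at 7.92 and 6.40. With the 1 transcript length used for each gene, Rnaseh2c stands above the other 2 subunits in all 4 libraries.

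The order of the 10 genes per kb differed between the genotypes, at levels that keep the GC and length trends described below. In Nr1d1+/+ it ran from Rnaseh2c (41.6 ± 4.61 CPM per kb) and Samhd1 (39.6 ± 1.003) through Rnaseh2b, Irf3, Rnaseh2a, Tmem173, Tbk1, Trex1 and Ikbke to Mb21d1 (0.577 ± 0.271). The neighbours Rnaseh2c and Samhd1, Rnaseh2b and Irf3, and Tmem173 and Tbk1 overlapped. In Nr1d1-/- it ran from Rnaseh2c (80.9 ± 5.22) through Irf3 (48.1 ± 7.27), Rnaseh2a, Rnaseh2b, Samhd1, Trex1, Tmem173, Tbk1 and Ikbke to Mb21d1 (1.13 ± 0.0155). There Irf3 and Rnaseh2a, Rnaseh2b and Samhd1, and Trex1 and Tmem173 overlapped. Mb21d1 and Ikbke were the lowest pair in both genotypes.

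Transcript length and GC content differed among the 10 genes, and folds over all genes followed both. Genes under 1200 bases had a median log2 fold of 0.61 and genes of 4000 bases or more had one of -0.46. Trex1 (1084 bases, 57.8% GC) and Rnaseh2c (1126 bases, 58.1% GC) belong to the short class of at least 55% GC, whose 559 genes had a median log2 fold of 0.88 and were called higher in 49.6% of cases. Their own folds exceeded that median by 0.28 and 0.08. Tbk1 (3024 bases) and Samhd1 (3926 bases) belong to a class of 672 genes with a median of -0.38, of which 27.2% were called lower. Their folds differed from that median by -0.42 and 0.14. Rnaseh2a (2044 bases), Irf3 (2031 bases) and Mb21d1 (4049 bases) exceeded the medians of their classes, 0.03, 0.31 and -0.56, by 1.30, 0.88 and 1.52. Rnaseh2b, Ikbke and Tmem173 differed from the medians of theirs by 0.68, 0.39 and -0.17.

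With these trends removed in each library, Irf3 (log2 fold 0.83, adjusted p = 0.0182), Rnaseh2a (1.28, adjusted p = 0.00777) and Rnaseh2b (0.70, adjusted p = 0.0348) were still called higher. That was 3 of the 10 genes, beside 11% of all genes called higher and 11.1% called lower in that fit. Trex1 (0.43, adjusted p = 0.358), Rnaseh2c (0.24, adjusted p = 0.345) and Tbk1 (-0.48, adjusted p = 0.159) were not called, and Samhd1 stood at 0.018. Mb21d1 went to 1.36 (adjusted p = 0.0598). Whether the trends come from the tumours or from the libraries cannot be told apart with 2 libraries a genotype. Scaling by library size alone moved the median log2 fold of all genes to -0.38 and the members with it. It called Irf3, Rnaseh2a and Rnaseh2c higher and Tbk1 and Samhd1 lower, beside 8.65% and 29.8% of all genes.

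**Figure D4:**
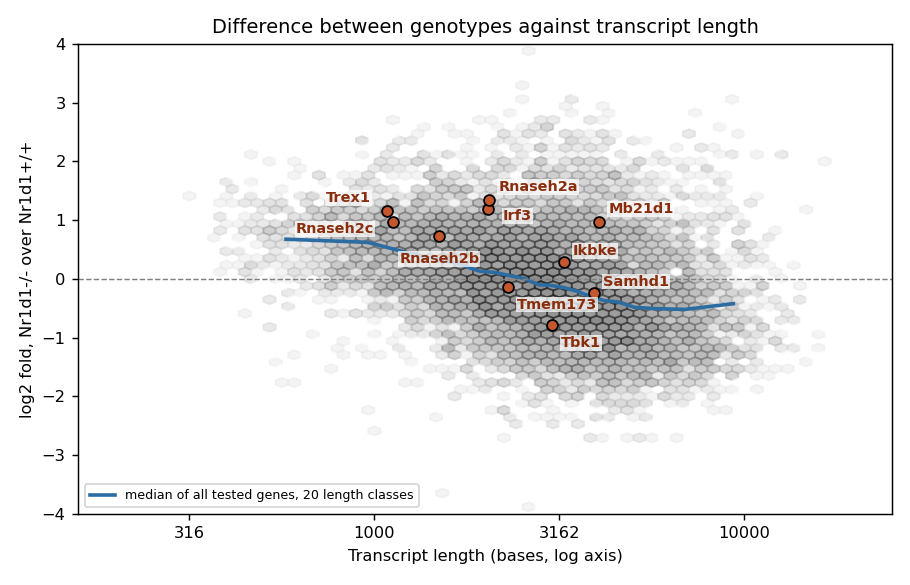
Log2 fold (Nr1d1-/- over Nr1d1+/+) of 14482 tested genes against transcript length (log axis, bases), as shaded density, with the median in 20 length classes as a line and the 10 genes as points; 164 genes lie outside the axes. Rnaseh2c, Trex1 and Samhd1 sit closer to the line than Rnaseh2a, Irf3 and Mb21d1, which sit above it, and Tbk1 sits below it.

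Over 6 lists of genes around the pathway, 11 of 100 tested genes were higher and 26 lower, beside 16.5% and 17.3% of all genes, with a median log2 fold of -0.07. Once the GC and length trends were taken out, 9 were higher and 16 lower, beside 11% and 11.1%. Without Nr1d1+/+ replicate 2 there were 4 and 10, beside 6.75% and 7.62%. Both counts also fell without Nr1d1+/+ replicate 1, as they did over all genes. Without Nr1d1-/- replicate 1 the count of lower genes fell, as over all genes, and the count of higher genes did not. Among 15 partners of TBK1 and IRF3, 6 were lower and 2 higher (17.3% and 16.5% of all genes), with a median of -0.55. Tank, the scaffold that holds TBK1, fell from 44.5 and 60.7 CPM to 12.1 and 18.7 CPM (log2 fold -1.77, SE 0.27, adjusted p = 0.00324). The IKK kinase genes Chuk (-1.85, adjusted p = 0.00383) and Ikbkb (-1.10, adjusted p = 0.00507) fell as well. Irf7, the interferon-inducible relative of IRF3, rose and is named after its values were seen (1.12, adjusted p = 0.00835).

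Other DNA sensors gave 5 lower and 1 higher of 18, beside 17.3% and 16.5% of all genes, with a median of -0.14. With the GC and length trends removed, 4 were lower and 2 higher, beside 11.1% and 11% of all genes, and the median was 0.12. Those 2, named outside the naming rule, were Hmgb1 (0.79, adjusted p = 0.0396) and Hmgb2 (0.63, adjusted p = 0.0293). Rad50, of the DNA break complex that can also sense cytosolic DNA, fell from 63.2 and 51.6 CPM to 14.3 and 15.0 CPM (-1.97, SE 0.22, adjusted p = 0.00182). The helicase genes Dhx9 (-1.90) and Dhx36 (-1.44) and Lrrfip1 (-1.32), which encodes a nucleic acid binding protein, fell too. Outside the naming rule, Prkdc fell (-1.56) and the helicase gene Ddx41 rose (0.62, adjusted p = 0.0333), and with the trends removed they stood at -1.16 (adjusted p = 0.0818) and 0.32 (adjusted p = 0.254). Of 26 tested regulators of cGAS and STING, 6 fell and 20 were not called, beside 17.3% of all genes lower, with a median of -0.07. Fewer were lower when either Nr1d1+/+ library was left out, as was the case over all genes. Once the trends were taken out, 6 were lower, beside 11.1% of all genes. The 1 called higher, beside 11%, was the cGAMP hydrolase gene Enpp1 (0.84, adjusted p = 0.0466), named after its value was seen. Those that fell included Ptpn2, a phosphatase gene (-1.19, adjusted p = 0.00298), Sec24c, of the vesicle coat that carries STING out of the endoplasmic reticulum (-0.81, adjusted p = 0.0119), Rhbdf2, which encodes the STING adaptor iRhom2 (-0.85), and Abcc1, which encodes a cGAMP exporter (-1.34). The RNA sensing genes that also signal through TBK1 gave 5 lower of 7 (17.3% of all genes were lower), with a median of -1.06: Ddx58 (RIG-I), Ifih1 (MDA5), Tlr3, Trim25 and, outside the naming rule, Mavs. Fewer of the 7 were lower without Nr1d1-/- replicate 1 and without Nr1d1+/+ replicate 2, as was the case over all genes. With the GC and length trends removed, 3 of these 7 had an unadjusted p under 0.05 and an adjusted p under 0.05 was not reached. In that fit 11.1% of all genes were lower.

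Of 18 tested nuclease genes beyond the 5 above, 6 were higher and 1 lower, beside 16.5% and 17.3% of all genes, with a median log2 fold of 0.45. Fewer were higher when Nr1d1+/+ replicate 2 was left out, as was the case over all genes. Once the trends were taken out 3 were higher, beside 11% of all genes. Scaling by library size alone left 0 by edgeR (4 at an unadjusted p under 0.05), where 8.65% of all genes were higher. Dnase2a, the lysosomal endonuclease that digests engulfed DNA, rose from 19.1 and 16.5 CPM to 42.6 and 31.1 CPM (1.05, SE 0.24, adjusted p = 0.0124). Pld3, a lysosomal exonuclease, rose from 93.4 and 89.1 CPM to 147 and 151 CPM (0.71, SE 0.17, adjusted p = 0.0134). With the GC and length trends removed, Dnase2a (0.67, adjusted p = 0.0740) and Pld3 (0.32, adjusted p = 0.184) were not called. The near-identical copies Rnaset2a (0.85) and Rnaset2b (0.86) may share reads and are uncertain as separate results. Trex2 and Dnase2b had 0 counts in all 4 libraries.

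Of 16 tested genes in the list of interferon and IRF3 output, 2 were higher and 3 lower, near the 16.5% and 17.3% of all genes. Their median log2 fold was -0.28. This list also holds the interferon receptor genes Ifnar1 (0.10) and Ifnar2 (-0.04), which are not output genes and were not called. Fewer were lower when any 1 library was left out, as was the case over all genes. Fewer were also higher, as over all genes, except without Nr1d1-/- replicate 1, where more of the list were higher. Cxcl9, a chemokine induced by interferon, rose from 6.48 and 3.54 CPM to 18.5 and 12.8 CPM (1.64, SE 0.37, adjusted p = 0.0116), and Isg15, a ubiquitin-like interferon target, rose from 15.0 and 11.8 CPM to 19.9 and 33.5 CPM (1.001, adjusted p = 0.0326). Ifit2, an interferon and IRF3 target, fell from 10.3 and 11.1 CPM to 5.49 and 5.39 CPM (-0.97, adjusted p = 0.0398). Tnf, an NF-kB target, fell from 61 and 40 counts to 1 and 5 counts (adjusted p = 0.0107), and Mx1, outside the naming rule, fell by 1.08 on the log2 scale (adjusted p = 0.0436). With the trends removed, Isg15 (adjusted p = 0.312), Ifit2 (0.273) and Mx1 (0.104) were not called, and Cxcl9 and Tnf were. Ifnb1, the interferon gene that IRF3 controls most directly, had 0 counts in all 4 libraries, and Il6 had 0, 6, 0 and 1.

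**Figure D5:**
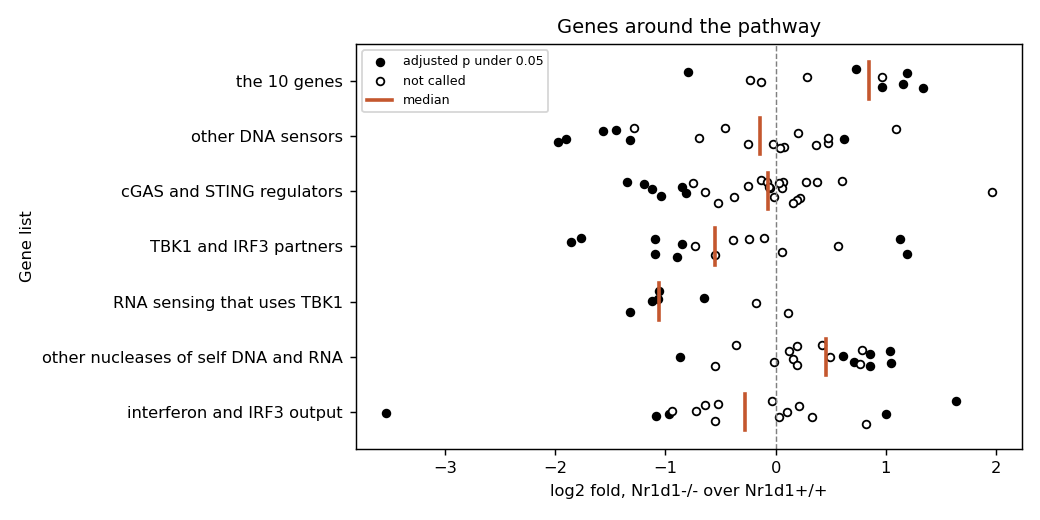
Log2 fold (Nr1d1-/- over Nr1d1+/+) of each tested gene in the 10-gene set and in the 6 surrounding lists, with filled points for genes at an adjusted p under 0.05 and a vertical bar at each list's median. The medians of the 10 genes (0.84) and of the other nucleases (0.45) lie above 0, and those of the TBK1 and IRF3 partners (-0.55) and the RNA sensing genes (-1.06) lie below it.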

How the data were processed

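RNA was sequenced from 4 mammary tumour samples, 2 labelled Nr1d1+/+ and 2 labelled Nr1d1-/-. Libraries were made from 1.3 ug of total RNA with a stranded SMARTer kit, per the labels' protocols. The authors deposited raw counts per gene symbol, and alignment used TopHat and mm10, per the submitters' processing notes. The counting program, its annotation and strand setting, and the versions were not given in the sources used here. Where counting ignored the strand, reads of a gene and its antisense partner cannot be told apart.

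Everything else was computed here from the deposited counts. The files held 23238 symbols, and GENCODE M21 (GRCm38) matched 22197 of them directly and 659 by a synonym, with 382 unmatched, and 35 symbols stood on more than 1 line and were kept apart. The Nr1d1+/+ libraries had total counts of 19116279 and 17768820 and TMM factors of 1.11 and 1.18. The Nr1d1-/- libraries had 15905404 and 18017279 and factors of 0.858 and 0.895. After filterByExpr (minimum count 10) 14801 genes remained for edgeR 4.0.16 in R 4.3.3 (quasi-likelihood F test, legacy=FALSE). Genotype was the sole term, which left 2 residual degrees of freedom, and the biological coefficient of variation was 0.249. P-values were Benjamini-Hochberg adjusted over all tested genes, and a gene was called under 0.05. The SE of a log2 fold was back-calculated as its absolute value over the square root of the F statistic. Intervals of folds were built from that SE, and intervals of folds and counts are at 95%. Exact permutation of 2 against 2 cannot give a p below 0.333, so none was used for single genes. CPM per kb used the length of 1 principal transcript a gene. The GC and length fit passed natural splines (5 degrees of freedom) of each library's log counts on GC content and log length to edgeR as offsets, for 14646 genes. Scripts were tested on simulated counts.

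The members, lists and tests were chosen with earlier results of these data known. The naming rule took all 10 members, Nr1d1, and up to 4 called genes of each surrounding list, lowest p first, and the 3 genes nearest in profile to Mb21d1 and to Tmem173. A few genes under this rule are not reported here. Alternatives were 3 other scalings, 2 other filters, DESeq2 1.42.0, limma-voom (limma 3.58.1), the older quasi-likelihood estimate, an adjusted p of 0.1, removal of GC and length trends by 2 choices of transcript (the second added after the data were seen), the replicate number as a block, and each library left out. Figures were drawn with matplotlib 3.10.9.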

Additional observations from a re-analysis of the deposited data

How the results depend on the processing

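Irf3 and Rnaseh2a were called higher under all 17 alternatives run, with log2 folds from 0.71 to 1.32 and from 0.93 to 1.59. Among these, the looser threshold of 0.1 used the same fit and could not lose a call. Over all genes, 2446 were higher and 2565 lower. Scaling by library size alone gave 1281 and 4415, so the share of calls that were higher went from 48.8% to 22.5%. Removing GC and length trends gave 1606 and 1621, of which 1335 and 1438 were among the calls with TMM scaling, or 1543 and 1589 with the median transcript. Leaving out 1 library gave 1036 to 2358 higher and 1170 to 2401 lower, with the lowest counts without Nr1d1+/+ replicate 2. Among the 10 members, 5 were higher and 1 lower. Library size alone gave 3 and 2, both removals of trends gave 3 and 0 (4 and 0 at an unadjusted p under 0.05 in the first, whereas DESeq2 and limma-voom without that removal gave 5 and 1), and leaving out 1 library gave 2 to 5 and 0 to 1. Among the surrounding genes, 11 were higher and 26 lower. Library size alone gave 3 higher and 39 lower, the removals of trends gave 9 and 16 and, with the median transcript, 8 and 14, and leaving out 1 library gave 4 to 12 higher and 10 to 24 lower. Signs turned for Ikbke with library size alone (-0.091), for Samhd1 with trends removed (0.018, and 0.017 with the replicate block as well) and for Nr1d1 when 1 library was left out (from -0.80 to 0.14). The cause of these changes was not tested.

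The labels do not say what a replicate number shares, and the deviations of same-numbered libraries correlated at 0.026, over only 2 pairs. With the replicate number as a block, 2622 genes were higher and 2704 lower, and the members again gave 5 and 1. With the replicate block and the trends removed, the members gave 4 higher and 0 lower, and Mb21d1 was then called (1.40, adjusted p = 0.0459). Depth limits Mb21d1 (33 to 73 counts) and Ikbke (60 to 103 counts) most, and neither was in the fit restricted to a mean of at least 5 CPM.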

Other observations

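By the distance between centred log2 CPM over the 4 libraries, the 3 genes most like Mb21d1 among 10831 candidates were Slc16a10 (root mean square distance 0.07), Il4ra (0.10) and Cxx1b (0.10). Il4ra, a receptor chain for interleukin 4, measured 21.9 and 34.9 CPM in Nr1d1+/+ and 59.3 and 56.2 CPM in Nr1d1-/-, and Slc16a10, an amino acid transporter, measured 4.11, 7.70, 10.9 and 9.67 CPM in the same order. Both were lowest in Nr1d1+/+ replicate 1 and highest in Nr1d1-/- replicate 1, as Mb21d1 was. For Tmem173 the nearest were Tmbim1 (0.01), Zfp317 (0.02) and Ints7 (0.02), and Tmbim1 measured 134 and 127 CPM in Nr1d1+/+ and 128 and 109 CPM in Nr1d1-/-. Over only 4 libraries this likeness is a description.

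The 10 proliferation markers summed to 566 and 710 CPM in Nr1d1+/+ and to 567 and 512 CPM in Nr1d1-/-. By edgeR 0 of the 10 were called, as by DESeq2 and limma-voom, beside 16.5% of all genes higher and 17.3% lower by edgeR. By edgeR 2 had an unadjusted p under 0.05, both lower. Other fits did call some. Scaling by library size alone gave 3 lower, beside 29.8% of all genes, and removing the GC and length trends gave 1 lower, beside 11.1%. With the replicate block as well, 1 was higher and 1 lower, beside 1943 and 1972 of 14646 genes. The 4 basal epithelial markers summed to 128 and 139 CPM against 294 and 347 CPM, with 2 higher and 1 lower.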
